A study of Saccharomyces cerevisiae with 7 samples.

Results

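Chaperones are proteins that bind other proteins while these fold, keep them from clumping under stress, and help to pull clumps apart. In yeast the main classes are Hsp70 with its J protein and nucleotide exchange partners, Hsp90 with its co-chaperones, the Hsp104 disaggregase with small heat shock proteins, a mitochondrial set, and the ring-shaped CCT chaperonin that folds actin and tubulin. Many of these genes are driven by the heat shock factor Hsf1, and the strongly inducible ones also by the general stress factors Msn2 and Msn4. The 41 genes described here were chosen by name, as HSF1 and genes of the cytosolic and mitochondrial chaperones, out of 5449 S. cerevisiae genes with a probeset on the array. Of these names, HSF1 encodes a transcription factor, HSP30 a plasma membrane protein and HSP31 a protein of the DJ-1 family, so they are not folding chaperones in the strict sense.

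The RNA came from 7 separate cultures of the cir+ strain NRRL Y-12632, grown aerobically for 24 h at 30 °C and measured on Affymetrix Yeast Genome 2.0 arrays, 1 array for each culture. Mine drainage replicates 1 to 4 grew in YPD, a rich medium of yeast extract, peptone and glucose, made with simulated asbestos mine drainage, and control replicates 1 to 3 grew in the same medium made with deionized water. The mine drainage was water leached from tailings of an asbestos mine, and the study's media analysis found the finished medium richer in magnesium and more alkaline than the control. All 7 cultures came from the same 48 h inoculum in control medium, and RNA at other times was not analysed here.

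Values are log2 signals made by the Robust Multichip Average (RMA), so a difference of 1 is a doubling. They are relative to the other transcripts on the array, and a change in the total amount of RNA per cell would not be seen. Each of the 41 genes was read from its own probeset, and all 41 lay above the 95th percentile of the Schizosaccharomyces pombe probesets (1.52) on all 7 arrays. Correlations between arrays over all S. cerevisiae probesets ran from 0.983 to 0.995 within mine drainage, from 0.986 to 0.994 within control and from 0.962 to 0.983 between the groups. On the first principal component the mine drainage arrays lay at 10.5 to 15.9 and control replicates 1, 2 and 3 at -8.50, -19.6 and -22.3, so control replicate 1 was the nearest to mine drainage. The mean signal of 3' probesets less that of 5' probesets, over 8 yeast control transcripts and a sign of RNA and labelling quality, was 0.495 to 0.866 on mine drainage arrays and 0.793 to 1.14 on control arrays. Fits with this value as a covariate were also made.

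At an adjusted p under 0.05 from limma, 4 of the 41 genes rose (9.76%) and 1 fell (2.44%), together 12.2%. Of all 5498 S. cerevisiae probesets 14.5% rose and 17.1% fell, together 31.6%. Most of the 41 genes are bright, and bright probesets had other shares, given below. The study's one-way test for each gene, run on the same values, called SSA2 and SSZ1 higher and none of the 41 lower (6.58% and 6.69% of all probesets). With array weights 20 of the 41 were higher and 1 lower (26.9% and 33.1% of all probesets). Control replicate 2 had a weight of 6.39 in that fit, against 0.468 and 0.68 for control replicates 1 and 3. With single arrays left out the counts were 0 to 7 higher and 0 to 1 lower, with 12.5% to 33.0% of all probesets called. The genes that rose were SSA2 (a cytosolic Hsp70), SSZ1 (a ribosome-associated Hsp70), CPR1 (the cytosolic cyclophilin A) and CCT3 (a CCT subunit), and the gene that fell was CCT7, a subunit of the same CCT ring. At an unadjusted p under 0.05, 9 of the 41 differed (22.0%), against 44.3% of all probesets. The mine drainage arrays all lay above the control arrays for 8 of the 41 genes (19.5%, against 17.7% of all probesets) and all lay below them for 1 (2.44%, against 20.5%, and 38.2% of all probesets in either direction).

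**Figure D1:**
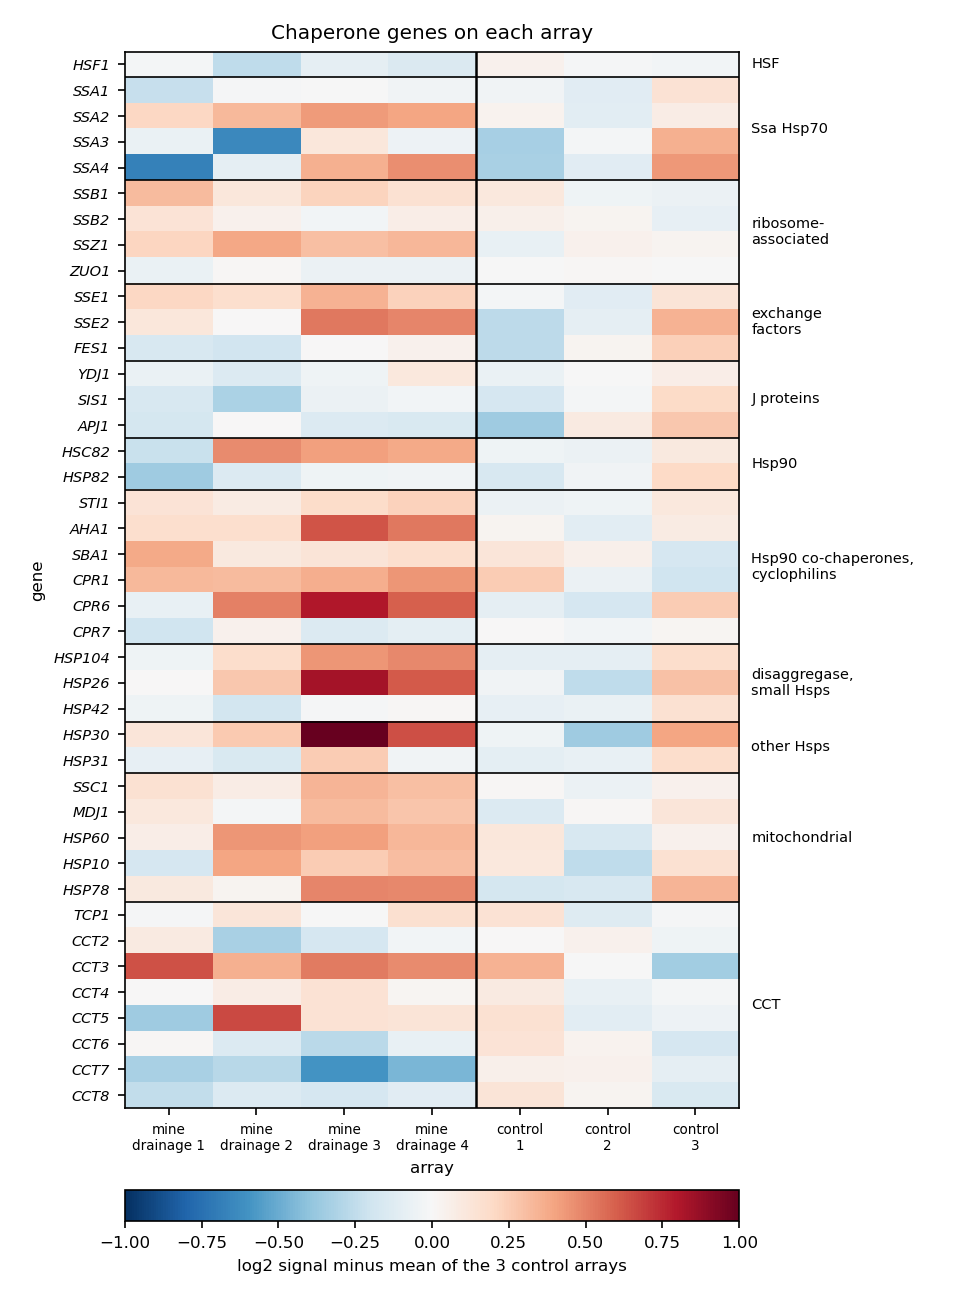
Log2 signal of each of the 41 genes (rows, by class) on each of the 7 arrays (columns, mine drainage left of the line and control right of it), with the mean of the 3 control arrays subtracted and red for higher. SSA2, SSZ1, CPR1 and CCT3 are red on all 4 mine drainage arrays and CCT7 is blue on all 4, while HSP30, HSP26 and CPR6 are deepest red on mine drainage replicates 3 and 4.

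The differences were small. They ran from -0.41 for CCT7 to 0.52 for HSP30 on the log2 scale, with a median of 0.14 over the 41 genes and of -0.03 over all probesets. For 28 of the 41 genes (68.3%, against 57.5% of all probesets) the 95% interval of the difference lay inside a 1.5-fold change in both directions, so larger changes lay outside those intervals. This group includes HSF1, SSA1, YDJ1, SIS1, HSP82, HSP42, HSP104 and HSP60, and also SSA2 and SSZ1, which rose. The other 13 genes, among them SSA3, SSA4, HSC82, HSP26, HSP30 and HSP78, had intervals that reached past 1.5-fold on one or both sides. The median depended on scaling: it was 0.04 after a further quantile normalization. Under that normalization CCT7 fell and none of the 41 genes rose by limma's adjusted p (6 had an unadjusted p under 0.05). Of all probesets 15.1% rose and 15.3% fell in the same fit. Of the 41 genes, 37 had a mean signal of at least 9. Of all 992 probesets that bright 21.8% rose and 8.57% fell by limma's adjusted p, and of the 37 genes 10.8% and 2.70%. Over the 992 probesets the median difference was 0.10, or 0.01 after the further normalization. The part of this shift in the genes' differences was not tested.

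**Figure D2:**
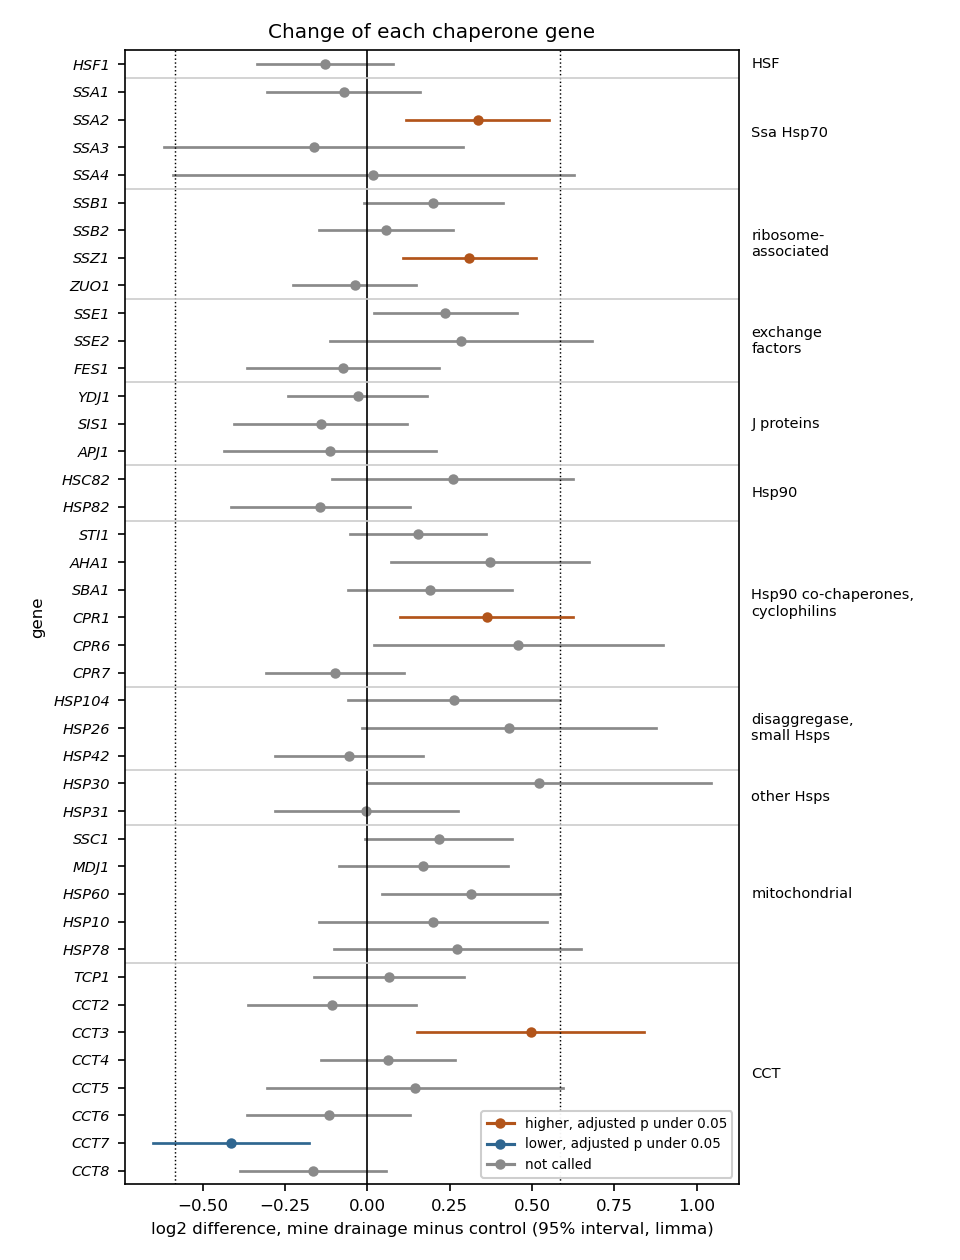
Log2 difference of each gene, mine drainage minus control (point), with its 95% interval from limma (line), by class; dotted lines mark a 1.5-fold change and colours the genes past an adjusted p of 0.05. Points run from -0.41 (CCT7) to 0.52 (HSP30), and the intervals of 28 genes stay between the dotted lines.

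HSF1, the gene of the heat shock factor, did not pass the test. Its log2 signal was 8.42, 8.19, 8.35 and 8.29 on the mine drainage arrays and 8.48, 8.42 and 8.41 on the control arrays. Mine drainage replicate 1 lay within the control values and the other mine drainage arrays below them. The difference was -0.13 (standard error 0.09, adjusted p = 0.311 from limma), with a 95% interval of 0.793-fold to 1.06-fold.

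The cytosolic Ssa proteins are the general Hsp70s of the cell, of which SSA1 and SSA2 are expressed in growing cells and SSA3 and SSA4 mainly under stress. SSA2 had a log2 signal of 11.20, 11.32, 11.42 and 11.39 in mine drainage and 11.03, 10.89 and 11.07 in control. Every mine drainage array was above every control array, and SSA2 rose 1.26-fold (log2 difference 0.33, standard error 0.10, adjusted p = 0.0281 from limma). SSA1, its close paralog, had 11.23, 11.45, 11.46 and 11.43 in mine drainage and 11.43, 11.35 and 11.61 in control. Here the groups overlapped, with the lowest value in mine drainage and the highest in control, and the difference was -0.07 (standard error 0.10, adjusted p = 0.624), or 0.01 once a trend with coding length was subtracted. SSA4 had 10.31, 10.89, 11.34 and 11.45 in mine drainage and 10.66, 10.87 and 11.42 in control. These values spread more within each group than between the groups (difference 0.02, standard error 0.27, adjusted p = 0.969). SSA3 had 7.65, 7.06, 7.82 and 7.67 in mine drainage and 7.38, 7.69 and 8.07 in control, again with overlap (-0.16, standard error 0.20, adjusted p = 0.563). Neither stress-inducible Hsp70 gene therefore passed the test, and their intervals, 0.664-fold to 1.54-fold for SSA4 and 0.652-fold to 1.22-fold for SSA3, include changes in both directions.

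The ribosome-associated system holds the Hsp70s Ssb1 and Ssb2, which bind growing chains, and the complex of the Hsp70 Ssz1 with the J protein Zuo1. SSZ1 had a log2 signal of 9.64, 9.81, 9.72 and 9.76 in mine drainage and 9.34, 9.47 and 9.45 in control. It rose 1.24-fold, with no overlap between the groups (0.31, standard error 0.09, adjusted p = 0.0285 from limma). ZUO1, which encodes its partner, had the narrowest spread of the 41 genes, at 10.26 to 10.34 in mine drainage and 10.32 to 10.34 in control (difference -0.04, standard error 0.08, adjusted p = 0.748). SSB1 had 10.68, 10.48, 10.59 and 10.52 in mine drainage and 10.47, 10.32 and 10.31 in control, with every mine drainage array higher by a small margin. It did not pass the test (0.20, standard error 0.09, adjusted p = 0.129), and neither did SSB2 (0.06, adjusted p = 0.654), whose sign turned to -0.05 after a further quantile normalization.

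The nucleotide exchange factors Sse1, Sse2 and Fes1 release ADP from Hsp70, and the J proteins Ydj1, Sis1 and Apj1 bring it clients and stimulate its ATPase. None of these 6 genes passed limma's adjusted threshold, and SSE1 was the one with an unadjusted p under 0.05. SSE1 was at 10.62 to 10.80 in mine drainage and 10.34 to 10.58 in control, without overlap (0.24, standard error 0.10, adjusted p = 0.0903). Its stress-inducible paralog SSE2 was at 9.91 to 10.44 in mine drainage and 9.65 to 10.26 in control (0.28, standard error 0.18, adjusted p = 0.242). YDJ1, the main cytosolic J protein gene, had 11.06, 10.99, 11.08 and 11.23 in mine drainage and 11.06, 11.12 and 11.19 in control. The groups overlapped almost completely, and its interval was 0.846-fold to 1.13-fold. SIS1, APJ1 and FES1 had differences of -0.14, -0.11 and -0.07, with adjusted p between 0.380 and 0.689.

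**Figure D3:**
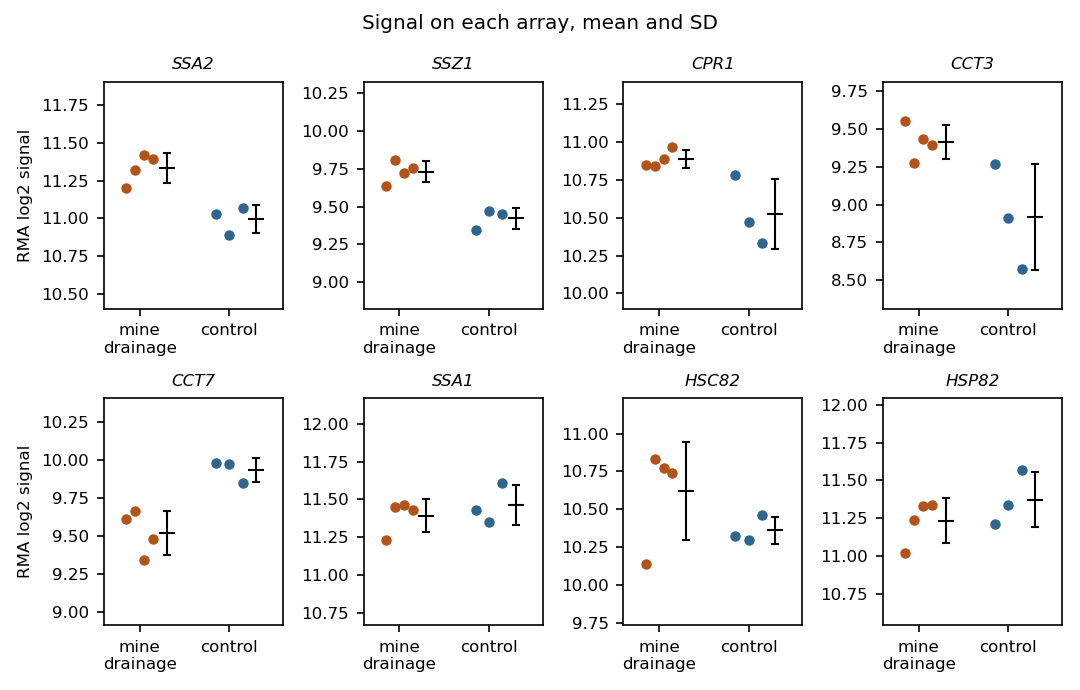
RMA log2 signal (y axis, each panel 1.5 units high) of 8 genes on each mine drainage array (left in each panel) and control array (right), with mean and SD in black. SSA2, SSZ1, CPR1, CCT3 and CCT7 show no overlap between the groups, and SSA1, HSC82 and HSP82 do, with mine drainage replicate 1 the lowest point of HSC82 at 10.14.

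Hsp90 matures kinases, receptors and other clients and is encoded by HSC82, expressed at a high level in growing cells, and HSP82, which is induced by heat. HSC82 had a log2 signal of 10.14, 10.83, 10.77 and 10.74 in mine drainage and 10.32, 10.30 and 10.46 in control. Mine drainage replicates 2 to 4 lay above all controls and replicate 1 below them all, and the gene did not pass (0.26, standard error 0.16, adjusted p = 0.246). Without mine drainage replicate 1 its difference was 0.42 (adjusted p = 0.0126 from limma). HSP82 had 11.02, 11.24, 11.33 and 11.34 in mine drainage and 11.21, 11.34 and 11.57 in control, with overlap and a difference of -0.14 (standard error 0.12, adjusted p = 0.393).

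Of the 6 genes of Hsp90 co-chaperones and cyclophilins, the proline isomerases, 1 rose and none fell. CPR1 had 10.85, 10.84, 10.89 and 10.97 in mine drainage and 10.78, 10.47 and 10.33 in control. The mine drainage arrays were nearly alike and above all controls, which spread widely, and CPR1 rose 1.28-fold (0.36, standard error 0.12, adjusted p = 0.0420 from limma). With the 3' minus 5' covariate in the fit its difference was 0.22 (adjusted p = 0.325). AHA1, which encodes the activator of Hsp90's ATPase, lay at 9.89 to 10.35 in mine drainage and 9.62 to 9.81 in control, without overlap, and missed the threshold (0.37, standard error 0.13, adjusted p = 0.0600). AHA1 passed limma's threshold without mine drainage replicate 1 (adjusted p = 0.0370) or 2 (adjusted p = 0.0375), and with a trend and robust prior (adjusted p = 0.0360). It also passed with limma's array weights (adjusted p = 0.000375), where control replicate 2 weighed most. CPR6, an Hsp90-bound cyclophilin gene, had the third largest difference of the 41, 0.46, but mine drainage replicate 1 (9.60) lay within the controls (9.50 to 9.92) and the other mine drainage arrays at 10.17 to 10.47 (standard error 0.20, adjusted p = 0.100). CPR6 was called higher with the 3' minus 5' covariate, at 0.83 (adjusted p = 0.0437 from limma), and without mine drainage replicate 1, at 0.64 (adjusted p = 0.0121). STI1, which links Hsp70 to Hsp90, SBA1, the p23 homolog, and CPR7 had differences of 0.15, 0.19 and -0.10, with adjusted p from 0.212 to 0.442.

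Hsp104 pulls proteins out of aggregates, and Hsp26 and Hsp42 are the small heat shock proteins that bind misfolded ones. HSP104 had a log2 signal of 10.28, 10.50, 10.77 and 10.81 in mine drainage and 10.24, 10.24 and 10.50 in control. HSP26 had 10.09, 10.36, 10.92 and 10.70 in mine drainage and 10.05, 9.84 and 10.38 in control. In both genes mine drainage replicates 3 and 4 lay above all controls and the other mine drainage arrays within or near the control range. The differences were 0.26 (standard error 0.14, adjusted p = 0.186 from limma) and 0.43 (standard error 0.20, adjusted p = 0.124). Without mine drainage replicate 1 HSP26 was called higher, at 0.57 (adjusted p = 0.0404). HSP42 had 11.07, 10.93, 11.10 and 11.12 in mine drainage and 11.03, 11.04 and 11.26 in control, a difference of -0.06 (standard error 0.10, adjusted p = 0.698). HSP30 had the largest difference of the 41 genes, 0.52, and a wide spread, at 10.14 to 11.06 in mine drainage and 9.67 to 10.41 in control (standard error 0.23, adjusted p = 0.114). HSP31 lay at 9.60 to 10.01 in mine drainage and 9.65 to 9.93 in control, a difference of -0.003 that was 0.02 after a median shift.

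Mitochondrial chaperones take up imported proteins: Ssc1 is the matrix Hsp70, Mdj1 its J protein, Hsp60 and Hsp10 form the matrix chaperonin, and Hsp78 is the matrix relative of Hsp104. All 5 genes had a positive difference, from 0.17 to 0.31, and from 0.04 to 0.19 after a further quantile normalization, but none passed limma's adjusted threshold and 1, HSP60, had an unadjusted p under 0.05. HSP60 had 10.28, 10.66, 10.63 and 10.55 in mine drainage and 10.33, 10.06 and 10.26 in control. Replicate 1 of mine drainage lay inside the control range and the other mine drainage arrays above it (0.31, standard error 0.12, adjusted p = 0.0719). Without mine drainage replicate 1 HSP60 was called higher, at 0.40 (adjusted p = 0.0215). HSP78 had 10.45, 10.38, 10.84 and 10.83 in mine drainage and 10.18, 10.19 and 10.69 in control (0.27, standard error 0.17, adjusted p = 0.232). SSC1 lay higher on every mine drainage array (10.64 to 10.91, against 10.51 to 10.61 in control), with an adjusted p of 0.122. MDJ1 and HSP10 had overlapping groups and adjusted p of 0.280 and 0.349.

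The 8 CCT subunits stand side by side in each ring of the chaperonin, and of their genes 1 rose and 1 fell. CCT3 had a log2 signal of 9.55, 9.275, 9.44 and 9.39 in mine drainage and 9.270, 8.91 and 8.57 in control. It rose 1.41-fold (0.50, standard error 0.15, adjusted p = 0.0359 from limma), and the controls spread over a wider range than the mine drainage arrays, with control replicate 1 just under the lowest of them. With the 3' minus 5' covariate in the fit its difference was 0.18 (adjusted p = 0.411). CCT7 had 9.61, 9.66, 9.34 and 9.48 in mine drainage and 9.99, 9.98 and 9.85 in control. It fell to 0.750 of the control level, with no overlap (-0.41, standard error 0.11, adjusted p = 0.0176), and had the smallest p of the 41 genes. The other 6 subunits differed by -0.17 to 0.14 and did not pass the test, with adjusted p from 0.220 for CCT8 to 0.650 for TCP1. Their log2 signals were 8.27 to 10.46 in mine drainage and 8.52 to 10.41 in control. The median of the 8 was -0.02, and -0.12 after a further quantile normalization, when TCP1 and CCT4 turned to -0.01 and -0.02.

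Each of the 5 calls was lost when some single arrays were left out. SSA2 stayed past the threshold in 3 of the 7 fits with an array left out, SSZ1 in 2, CPR1 in 1, CCT3 in 2 and CCT7 in 5. Over all 7 fits no sign changed, with differences of 0.28 to 0.38 for SSA2, 0.27 to 0.34 for SSZ1, 0.26 to 0.49 for CPR1, 0.32 to 0.67 for CCT3 and -0.46 to -0.35 for CCT7, and adjusted p up to 0.131, 0.0842, 0.1596, 0.132 and 0.0802 in the same order of genes. Without control replicate 1 SSZ1 lost its call (adjusted p = 0.0672 from limma), leaving 3 genes higher and 1 lower, against 33.0% of all probesets called. Without mine drainage replicate 1 the counts were 7 higher and 1 lower (32.45% of all probesets called), with HSC82, AHA1, CPR6, HSP26 and HSP60 among those higher. Without control replicate 2 none of the 41 passed limma's adjusted threshold (5 at an unadjusted p under 0.05), and 12.5% of all probesets were called. Without mine drainage replicate 4 again none passed (5 unadjusted, CCT7 with an adjusted p of 0.0511), against 20.3% of all probesets. Without mine drainage replicate 3 or control replicate 3 CCT7 was the single gene called, against 20.6% and 15.7% of all probesets. With the 3' minus 5' covariate in the fit none of the 5 kept its call, and 9.42% of all probesets were called. Besides CPR1 and CCT3 above, SSA2 differed by 0.41 in that fit (adjusted p = 0.0691 from limma), SSZ1 by 0.40 (adjusted p = 0.0577) and CCT7 by -0.47 (adjusted p = 0.0690).

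Several stress-inducible chaperone genes varied widely between cultures of the same medium. SSA4, HSP30, SSA3, CCT5, HSP26, CPR6, SSE2 and HSP78 had the widest spread within groups, with pooled standard deviations of 0.472 for SSA4 to 0.266 for HSP78, at percentiles 86.7 to 99.1 of all probesets. Most of them were low and high on the same arrays: mine drainage replicates 3 and 4 and control replicate 3 were high, and mine drainage replicate 1 was low. Control replicate 3 was the highest control for 25 of the 41 genes (61.0%, against 37.0% of all probesets). Mine drainage replicate 1 was the lowest mine drainage array for 20 (48.8%, against 28.8%) and replicate 2 for 18 (43.9%, against 30.7%). Mine drainage replicate 4 was the lowest for 0 (13.9% of all probesets). Deviations from the group means over the 7 arrays, set against those of HSP26, had a correlation of 0.98 for HSP30, 0.95 for SSA2, 0.94 for HSP104 and CPR6, 0.92 for AHA1, 0.89 for SSA4 and 0.87 for HSP78. A correlation above 0.8 was found for 13 of the 40 other genes (32.5%) and for 3.18% of all probesets. The correlation of CCT7 was -0.88. These values describe 7 arrays that all genes share, and HSP26 was chosen for the comparison after its values were seen. Mine drainage replicate 1 had the smallest 3' minus 5' value (0.495) and control replicate 3 the largest (1.14). Mine drainage replicate 2, also often low, had 0.866. The part of these values in the pattern was not tested.

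**Figure D4:**
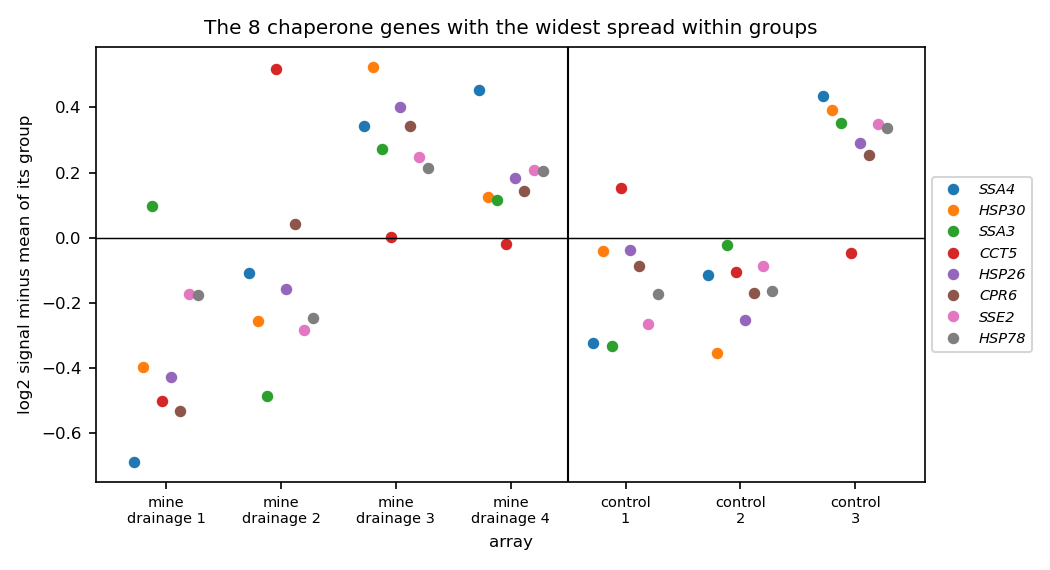
Log2 signal minus the mean of its own group (y axis) on each array (x axis) for the 8 chaperone genes with the widest spread within groups, one colour per gene. Of the 8, all but CCT5 lie above 0 on mine drainage replicates 3 and 4 and on control replicate 3.

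Pairs of close paralogs were compared by the difference of their log2 signals on each array, which asks whether the 2 genes of a pair changed alike. The SSA1 minus SSA2 difference was 0.0305 to 0.129 on the mine drainage arrays and 0.405 to 0.533 on the control arrays. It was lower in mine drainage by 0.41 on average (standard error 0.04), with no overlap (two-sided exact permutation p = 0.0286, the lowest value that 35 splits of 7 arrays allow, and 0.114 adjusted over the 6 pairs). The HSC82 minus HSP82 difference was -0.879 to -0.407 in mine drainage and -1.11 to -0.894 in control, also without overlap (0.40 higher in mine drainage, standard error 0.13, exact permutation p = 0.0571, adjusted 0.114). The SSB1 minus SSB2 difference was higher by 0.14 in mine drainage (standard error 0.06, exact permutation p = 0.0571, adjusted 0.114). The CPR6 and CPR7 pair differed by 0.56 (standard error 0.23, exact permutation p = 0.0857, adjusted 0.129). For SSE1 with SSE2 and SSA4 with SSA3 the groups overlapped (-0.05 and 0.18, standard errors 0.17 and 0.32, exact permutation p = 0.771 and 0.657). With an array left out the SSE1 minus SSE2 change ran from -0.16 to 0.07, with its sign turned without mine drainage replicate 4 or control replicate 1. None of the 6 pairs passed after adjustment. With 35 splits a pair at the lowest possible p could pass only if several other pairs reached it too. For SSA1 with SSA2 the adjusted value therefore decides nothing. Since paralogs are alike in sequence, RNA of one gene may add to the probeset of the other, which was not tested.

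**Figure D5:**
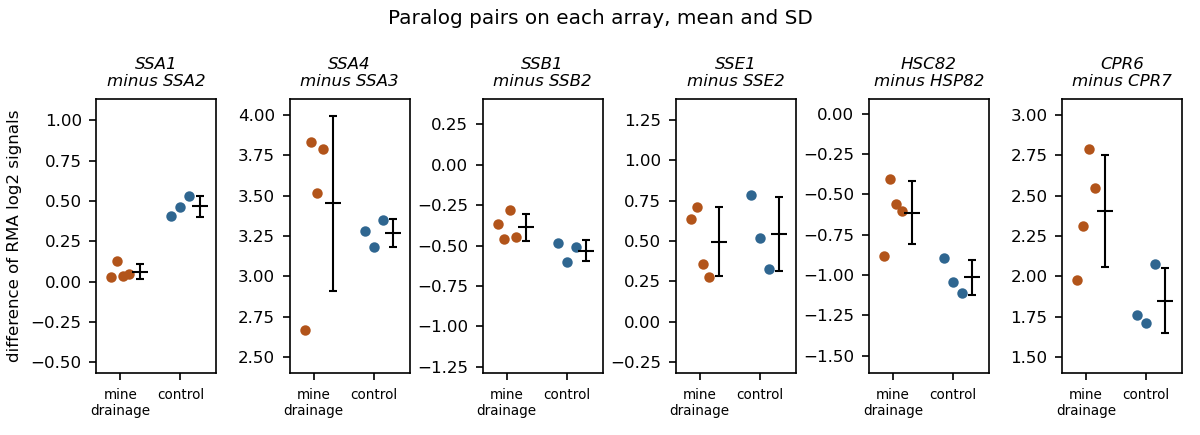
Difference of the log2 signals of 2 paralogs (y axis, each panel 1.7 units high) on each mine drainage array (left in each panel) and control array (right), with mean and SD in black. The groups do not overlap for SSA1 minus SSA2, SSB1 minus SSB2 and HSC82 minus HSP82.

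Further chaperone genes outside the 41 were called in both directions. Of 37 measured genes of 40 listed (prefoldin, the nascent chain complex NAC, other co-chaperones of Hsp90 and Hsp70, other mitochondrial chaperones, aggregate sorting factors, HSP31 paralogs and CCT cofactors), 4 rose (10.8%) and 8 fell (21.6%), beside 14.5% and 17.1% of all probesets. The counts were 4 and 5 after a further quantile normalization (15.1% and 15.3% of all probesets). Without control replicate 2 they were 1 and 2 (5.89% and 6.62% of all probesets). Without control replicate 3, or mine drainage replicate 3 or 4, they were 2 and 2. The largest fall was that of JJJ1, which encodes a J protein of ribosome assembly, at 6.25 to 6.88 in mine drainage and 7.04 to 7.62 in control (-0.88, standard error 0.18, adjusted p = 0.00733 from limma). PIH1, of the R2TP complex that works with Hsp90, fell by 0.69 on the log2 scale, and its values were 6.61 to 7.01 in mine drainage and 7.42 to 7.50 in control. The J protein genes CAJ1 and DJP1 fell by 0.39 and 0.37, the prefoldin subunit gene GIM3 by 0.34, and the mitochondrial chaperone genes ECM10, TCM62 and JAC1 by 0.45, 0.40 and 0.35. HCH1, a relative of AHA1, rose by 0.47, the Hsp90 phosphatase gene PPT1 by 0.53, CUR1, which sorts misfolded proteins, by 0.38, and SNO4, a paralog of HSP31 with near-identical relatives that could share its probes, by 0.42. No gene of the 3 NAC genes or the single measured CCT cofactor passed limma's test, adjusted or unadjusted. Among 8 markers of the general stress response, 3 rose (37.5%) and none fell, beside 14.5% and 17.1% of all probesets. Counts called with an array left out are not given for these markers. DDR2, a stress-induced gene, rose by 1.04 on the log2 scale (adjusted p = 0.00405 from limma), TPS2, of trehalose synthesis, by 0.50 and HSP12, a small membrane stress protein gene, by 0.57. The other trehalose synthesis genes TPS1 and TSL1 had differences of -0.25 and 0.0065 that did not pass, with every mine drainage array below every control array for TPS1 (unadjusted p = 0.0254 from limma). MSN2, MSN4 and CTT1, which encodes a catalase, did not pass either, at 0.11, 0.33 and 0.24, with overlap between the groups. MSN4 and CTT1 had an unadjusted p of 0.0450 and 0.0445 from limma. At an unadjusted p under 0.05, 6 of the 8 markers differed, TPS1 downward, beside 44.3% of all probesets.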

How the data were processed

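The authors deposited log2 signals, computed from the array scans by RMA in Partek Genomics Suite, with background correction, quantile normalization across all arrays and a summary of the probes of each probeset, as the methods and the submitters' processing notes give it. No value was normalized again for the principal results. Groups and replicate numbers were read from the sample labels, and the study's methods describe the samples as independent cultures. Probesets were named through the platform annotation and a RefSeq gene table, which left 5498 of 10928 probesets for 5449 S. cerevisiae genes. For each of the 41 genes the probeset with the highest mean was kept, leaving out shared probesets where another was present, which concerned SSB1 alone.

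Each probeset was tested for mine drainage minus control with limma 3.58.1 in R 4.3.3 (lmFit and eBayes, default settings, two-sided), adjusted by Benjamini-Hochberg over the 5498 probesets at a threshold of 0.05, and all adjusted p-values for genes come from it unless another test is named. The 6 paralog pairs were tested with an exact permutation test over 35 splits of the arrays, on the absolute difference of the group means. The limma step was checked on simulated data with known changes. The genes and lists were chosen with earlier results of these data known. All 41 genes are accounted for. Those called, and HSF1, SSA1 to SSA4, SSB1, HSC82, HSP82, HSP104, HSP26, HSP42, HSP60, HSP78 and YDJ1 whatever their result, are given on every array, and genes of other lists are named where called. HSP32 and HSP33, of those lists, were not analysed here, and MSN2, MSN4, CTT1, TPS1 and TSL1 were named after their values were seen. Within-group correlations and the split at a signal of 9 were also chosen after the data were seen. Alternatives were the study's one-way test for each gene, limma with a trend and robust prior, limma with weights for the arrays, a further quantile normalization, a median shift, a filter on dim probesets, the mean of all probesets of a gene, the replicate number as a block, each array left out, the 3' minus 5' value as a covariate and subtraction of a coding length trend. The number of arrays limits the precision. Figures were drawn with matplotlib 3.10.9. No sequences and no genome coordinates are given.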

Additional observations from a re-analysis of the deposited data

Results flagged for a closer look

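In 3 of the 41 genes, 1 of the 4 mine drainage arrays stood apart from the other mine drainage arrays, with a gap to its nearest neighbour that took up more of the group's whole range than Dixon's critical value allows. Chance alone marks about 1 in 20 groups in this way, and groups of 3, the controls, were not examined. SSA1 was at 11.23 on mine drainage replicate 1 and at 11.43 to 11.46 on the other mine drainage arrays, and its control arrays were at 11.35 to 11.61. HSC82 was at 10.14 on the same array, mine drainage replicate 1, and at 10.74 to 10.83 on the others, with controls at 10.30 to 10.46. ZUO1 was at 10.34 on mine drainage replicate 2 and at 10.26 to 10.27 on the others, with controls at 10.32 to 10.34, so its gap was small on the log2 scale.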

How the results depend on the processing

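Of the 41 genes, 4 higher and 1 lower were called with limma. The counts were 2 and 0 in the study's one-way test for each gene (6.58% and 6.69% of all probesets). With a trend and robust prior they were 7 and 1 (15.5% and 17.1% of all probesets). With array weights they were 20 and 1, from weights whose fit did not fully converge and that were largest for control replicate 2. They were 0 and 1 after a further quantile normalization (15.1% and 15.3% of all probesets). With the 3' minus 5' covariate they were 1 and 0 (4.24% and 5.18% of all probesets). After a coding length trend was subtracted they were 5 and 1 (16.0% and 14.75% of all probesets). They stayed at 4 and 1 after a median shift (15.4% and 15.5% of all probesets). They were also 4 and 1 with a filter on dim probesets (14.7% and 17.45% of those kept). The mean of all probesets of a gene again gave 4 and 1 (14.4% and 17.3% of all genes). With each array left out in turn, 12.5% to 33.0% of all probesets were called. Of the 41 genes 0 to 7 were higher and 0 to 1 lower in these fits. For the other chaperone lists 1 to 4 were higher and 2 to 8 lower. Those lists had 5 genes lower after a further quantile normalization. Counts over all probesets also moved by more than 1.5 times: 795 higher and 942 lower with limma were 362 and 368 in the one-way test, 1476 and 1820 with array weights, 233 and 285 with the covariate, and 324 and 364 without control replicate 2. The median difference of 0.14 was 0.22 with array weights, 0.042 after quantile normalization and 0.061 to 0.16 with an array left out.

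With the replicate number as a block and mine drainage replicate 4 left out, 0 genes were higher and 0 lower by limma's adjusted p (9 unadjusted), and 432 and 497 of all probesets. The deviations of same-numbered arrays had correlations of -0.0651, -0.177 and 0.082. These values do not show that the numbers pair the samples, and so few arrays cannot decide it. Not every array was most alike to its own number. SSA4 and HSP31 turned to -0.13 and 0.0084 in the block, the same values as without mine drainage replicate 4 and no block.

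No called gene changed sign in any alternative. Besides the calls gained with array weights or an array left out, SSE1 and HSP60 passed with a trend and robust prior (adjusted p = 0.0370 and 0.0377 from limma) and after the length trend was subtracted (0.0319 and 0.0465). Among genes that did not pass, the sign turned in these: with array weights SSA1 (0.041), YDJ1 (0.042), HSP42 (0.034) and HSP31 (0.062), after quantile normalization SSA4 (-0.066), SSB2 (-0.046), TCP1 (-0.010) and CCT4 (-0.019), after a median shift HSP31 (0.022), and after the length trend SSA1 (0.0145). With the 3' minus 5' covariate SSA1 (0.078), SSB2 (-0.035), FES1 (0.081), APJ1 (0.14), HSP82 (0.064), SBA1 (-0.012) and HSP31 (0.11) turned. With an array left out the range crossed 0 for SSA3 (-0.33 to 0.013), SSA4 (-0.14 to 0.25), FES1 (-0.21 to 0.044), YDJ1 (-0.075 to 0.0041), APJ1 (-0.29 to 0.022), HSP42 (-0.095 to 0.018), HSP31 (-0.091 to 0.086) and CCT5 (-0.028 to 0.31). The SSA4 minus SSA3 change of 0.18 ran from 0.055 to 0.44 with an array left out, and the SSE1 minus SSE2 change of -0.047 from -0.16 to 0.073. The SSB1 minus SSB2 change was 0.11 with the mean of all probesets (exact permutation p = 0.0286, the smallest possible and before adjustment over the pairs). The cause of these shifts was not tested.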
